A study of Oryza sativa Japonica Group with 4 samples.

Results

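The genes described here are MODD (LOC_Os03g11550) and its neighbours on rice chromosome 3. They were taken as every listed gene whose identifier runs from LOC_Os03g10600 to LOC_Os03g12200 with at least 15 expected reads summed over the 4 libraries. Of 118 identifiers in that range, 97 met the minimum, out of 21797 genes of the whole series that met it and 28491 that were listed at all. An expected count is the estimated number of reads assigned to a gene. Identifiers number the genes in order along the chromosome, mostly in steps of 10, so distances below are differences between identifier numbers and not lengths in bases.

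The libraries came from the shoots of soil-grown rice seedlings (Oryza sativa, japonica) with 4 leaves, and no stress treatment is named. One group of 2 libraries was the cultivar DongJin, the wild type. The other group of 2 was labelled modd mutant (here the modd-labelled libraries), with titles that read modd2, and its line came from the POSTECH rice mutant library, a collection known for T-DNA insertion lines. The sources used here do not give the kind or position of the mutation, nor whether the samples of a group were separate plants or pools, so the p-values rest on a spread between samples that may be no more than technical. Both libraries of the mutant group carry the same line name, so other differences that this line may carry from DongJin cannot be told apart from the mutation.

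MODD belongs to the family of ABI-FIVE BINDING PROTEINS, first described in Arabidopsis thaliana, which restrain bZIP transcription factors of the abscisic acid response. The series title gives it a part in the deactivation and breakdown of OsbZIP46, such a bZIP factor, and so in holding back abscisic acid signalling. Abscisic acid is the hormone of the drought response. Its pathway has receptors, phosphatases, kinases and, at its end, bZIP factors such as OsbZIP46. The comparison asks where on chromosome 3 transcripts differed between the groups and how far from MODD the differences reached.

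The files do not pair identifiers with names. Published locus names were looked up in the RefSeq gene table (assembly ASM3414082v1), which holds 0 of the member identifiers but has 6 of the 8 names sought. D14, OsNRAMP2, RPA1B, MODD, DL and OsMADS1 stand on chromosome 3 there in the same order as their identifier numbers. In that table RPA1B is the protein-coding gene directly before MODD. Between MODD and DL lie 4 protein-coding genes, the same number as members with identifiers between them. D14 and OsNRAMP2 stand at -73 and -44 protein-coding genes from MODD, and fewer members have identifiers in those stretches. Members had to meet the count minimum, so such numbers need not match. Only the 6 names found are used, and the pairing of each with its identifier rests on the published locus numbers.

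Each library held between 5334814 and 5393972 expected reads, and all 97 members were listed in all 4. Members took 0.459 and 0.442% of the reads in the modd-labelled libraries, and 0.426 and 0.405% in the DongJin libraries. Their levels, in FPKM (expected reads scaled by transcript length and library size), ran from a mean of 0.352 to 308 with a median of 12.9. Light-harvesting and Rubisco markers of green tissue were all listed (6 of 6), with a summed level of 9830 and 11406 FPKM in the modd-labelled libraries and 11756 and 13454 FPKM in DongJin. Of the root list of 5, the tables held LSI1 and OsHKT2;1, while OsYSL15, OsNRT2.1 and LSI2 were at 0 throughout, and the sum was 19.1 and 16.9 against 15.4 and 11.7 FPKM in the same order. The 2 floral markers, OsMADS14 and OsMADS1, summed to 13.1 and 11.5 against 12.7 and 11.9 FPKM, nearly all of it OsMADS14, and the meristem marker OSH1 was at 0 and 0.44 against 0.59 and 0.66 FPKM. DongJin replicate 2 was at the end of the range in the green and root lists, and the part of this in the results below was not tested.

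MODD itself came first, as the gene that the mutant is named for. It had 328 and 416 expected reads in the modd-labelled libraries and 188 and 193 in the DongJin libraries, or 36.91 and 46.61 against 20.95 and 21.32 FPKM. Both libraries labelled modd mutant were thus above both DongJin libraries, against the label if the mutation were one that lowers the transcript. MODD rose 1.9-fold, a log2 change of 0.93 ± 0.146 (SE, n = 2 and 2), with a 95% interval from 0.60 to 1.25 (edgeR adjusted p = 0.0272). With limma on log2(FPKM + 1), the change was 0.94 and did not pass (limma adjusted p = 0.0792). Its adjusted p ran from 8.68e-05 to 0.0868 over the 12 alternative fits (edgeR, DESeq2 and limma). In such bulk tissue, more cells of a type and more RNA per cell cannot be told apart. Gene totals do not show where in the gene the reads lay, so they give no check of which part of it is intact.

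The next identifier up, LOC_Os03g11560, rose as well. Its level was 24.86 and 26.84 FPKM in the modd-labelled libraries and 13.94 and 12.15 FPKM in DongJin. The groups did not overlap, and the libraries of each lay close together. The rise was 1.92-fold, a log2 change of 0.94 ± 0.137 (SE, n = 2 and 2) with a 95% interval from 0.64 to 1.25 (edgeR adjusted p = 0.0235). It too missed the threshold with limma on log2(FPKM + 1), at 0.94 (limma adjusted p = 0.0735, with a range from 2.03e-05 to 0.0808 over the edgeR, DESeq2 and limma alternatives). The RefSeq table gives no name to the gene after MODD, and its product is not annotated in the sources used here.

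These were the only 2 calls among the 90 members tested by edgeR, both higher in the modd-labelled libraries. That is 2.22% of the tested members, and 1 of 89 without MODD, where 0.837% of all 19365 genes tested were called and 0.501% of all were called as higher. The number of member calls moved with the method and with single libraries. It was 4 with DESeq2 (4.12% of members, beside 2.85% of all genes) and 5 without a filter on low counts (5.15% beside 2.69%). These 2 pairs have unlike bases. The 4.12% is over all 97 members, also those that DESeq2 gave no adjusted p, while the 2.85% leaves such genes out. The 2.69% takes in genes below the 15 reads that members needed. The number of member calls was 0 with limma on log2(FPKM + 1). In that fit 16 members had a limma unadjusted p under 0.05, beside 3126 of all 19365 genes. Leaving out replicate 2 labelled modd mutant gave 5 (5.43% beside 2.94%), and leaving out DongJin replicate 2 gave 4 (4.35% beside 2.28%). Leaving out DongJin replicate 1 gave 13, or 14.0% of members, near the 12.4% of all genes called in that fit. MODD and LOC_Os03g11560 were called in 10 of the 12 alternative fits, all but the limma fits.

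**Figure D1:**
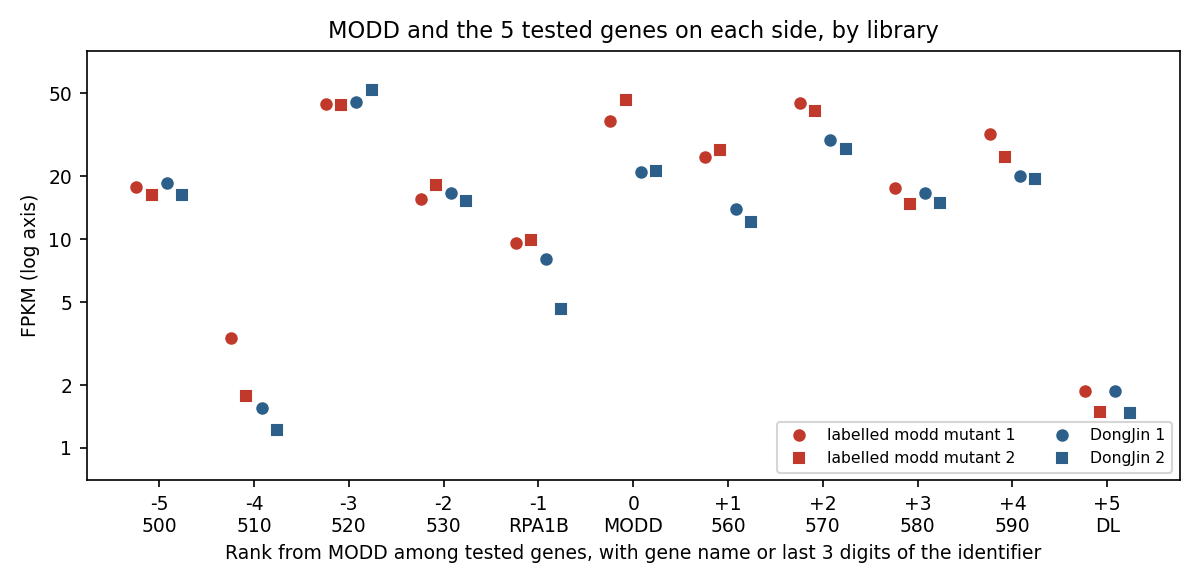
Level in FPKM (log axis) of MODD and the 5 tested genes on each side in identifier order, with 1 point per library, red for the modd-labelled libraries and blue for DongJin. Both red points are above both blue points at MODD, at the genes ranked +1, +2 and +4 and at those ranked -1 and -4, while the gene ranked +3 has all 4 libraries between 14.73 and 17.62 FPKM.

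Beyond LOC_Os03g11560, the next genes had smaller values and none was called. LOC_Os03g11570 was at 45.08 and 41.24 FPKM in the modd-labelled libraries and 29.86 and 27.01 FPKM in DongJin, so the groups were apart here too. Its log2 fold change was 0.56 ± 0.113 (SE), with a 95% interval from 0.30 to 0.81, just short of the threshold (edgeR adjusted p = 0.0546). It passed in 5 of the 12 alternative fits, including those without DongJin replicate 1 and without DongJin replicate 2, and its adjusted p ran from 0.00206 to 0.216 over the edgeR, DESeq2 and limma alternatives. Its expected counts held fractions, so some of its reads were divided between it and other genes, which are not identified here.

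The third gene up, LOC_Os03g11580, was at 17.62 and 14.73 FPKM in the modd-labelled libraries and 16.64 and 14.93 FPKM in DongJin, and the groups overlapped fully. The log2 fold change was -0.01 ± 0.123 (SE, edgeR adjusted p = 0.982), and its 95% interval, from -0.28 to 0.27, ended below the lower bounds of MODD, LOC_Os03g11560 and LOC_Os03g11570. The difference between these genes was not itself tested.

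LOC_Os03g11590, the fourth, was at 32.1 and 24.9 FPKM against 20.11 and 19.54 FPKM, again with the modd-labelled libraries on top. Its log2 change of 0.43 ± 0.139 (SE) did not pass (edgeR adjusted p = 0.163), and it was 0.27 without replicate 1 labelled modd mutant. Its counts were fractional as well, and it has 5 listed transcripts.

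DL, a YABBY transcription factor gene known for carpel identity and the leaf midrib, was the fifth. It had 10 and 8 expected reads against 10 and 8, and its interval, from -1.08 to 1.01, was too wide at that depth to place it beside MODD. OsMADS1, a MADS-box gene of floral organ identity, had 2 and 4 reads against 7 and 2 and was not tested.

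On the other side of MODD lies RPA1B (LOC_Os03g11540), which codes for a large subunit of replication protein A, the protein that coats single-stranded DNA. It was at 9.64 and 9.92 FPKM in the modd-labelled libraries and 8.08 and 4.65 FPKM in DongJin. The groups did not overlap, but the DongJin libraries were further from each other than replicate 1 was from the modd-labelled libraries. The log2 fold change was 0.58 ± 0.226 (SE) and did not pass (edgeR adjusted p = 0.237). It was 0.99 and passed only without DongJin replicate 1 (edgeR adjusted p = 0.00137, with 0.687 the highest of the alternatives), and it was 0.26 without DongJin replicate 2.

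Further down, LOC_Os03g11530 was at 15.67 and 18.26 against 16.67 and 15.25 FPKM, with overlapping groups and a log2 change of 0.05 ± 0.14 (SE, edgeR adjusted p = 0.896). LOC_Os03g11520 was at 44.64 and 43.95 against 45.7 and 51.73 FPKM, slightly lower in the modd-labelled libraries, with a log2 change of -0.22 ± 0.109 (edgeR adjusted p = 0.341). Neither passed the test. LOC_Os03g11510 had a larger value on few reads, 30 and 16 against 14 and 11, a log2 change of 0.84 ± 0.411 (edgeR adjusted p = 0.339). It was 0.33 without replicate 1 labelled modd mutant and 1.21 without replicate 2. LOC_Os03g11500 was at 17.75 and 16.22 against 18.64 and 16.24 FPKM (log2 fold change -0.08, edgeR adjusted p = 0.828).

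In identifier order, then, the 4 adjacent genes from RPA1B to LOC_Os03g11570, MODD included, each had both libraries labelled modd mutant above both DongJin libraries. On the lower side the run ended at LOC_Os03g11530, a distance of -20 from MODD, and on the higher side at LOC_Os03g11580, a distance of 30. These ends were read from the same values. Past them, LOC_Os03g11510 at -40 and LOC_Os03g11590 at 40 again had both modd-labelled libraries on top. Over all genes tested, 24.7% had both libraries labelled modd mutant above both DongJin libraries and 25.6% had both below.

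**Figure D2:**
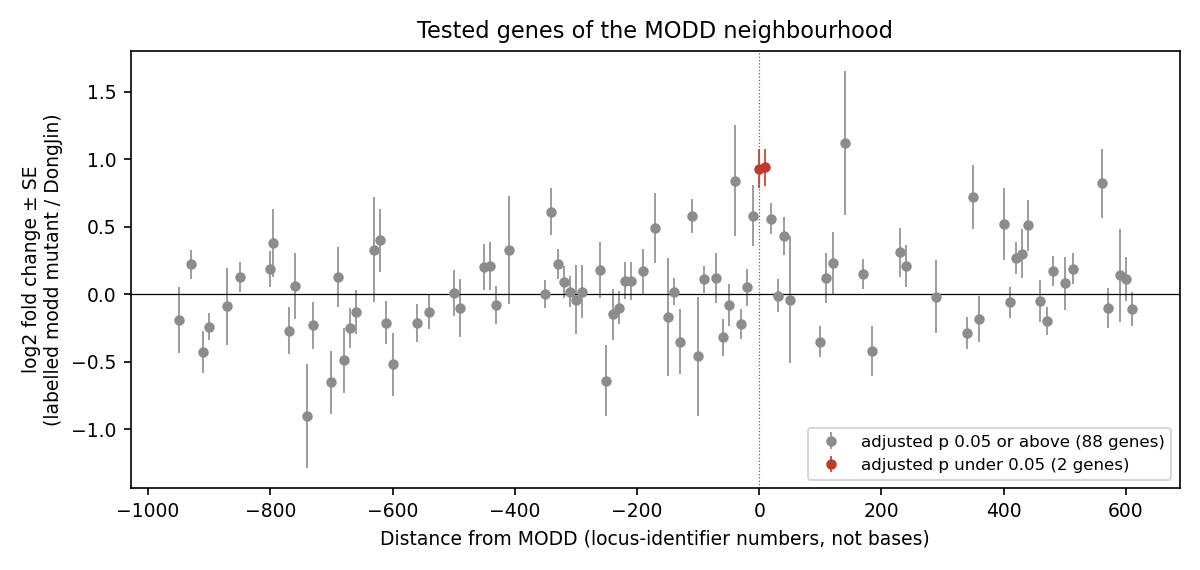
log2 fold change with its SE for the 90 tested members against distance from MODD in identifier numbers, red where the edgeR adjusted p was under 0.05. MODD and the gene at a distance of 10 are the 2 red points, at 0.93 and 0.94, and members on both sides scatter around 0.

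Over all 90 tested members, MODD and its neighbours included, values were set beside those of genes elsewhere. The median log2 change was 0.055, against -0.001 for the 2514 tested genes of chromosome 3 outside the range and 0.005 for all tested, and it was 0.102 for members without DongJin replicate 1. The median absolute log2 fold change was 0.206 for members, 0.19 for the rest of chromosome 3 and 0.199 for all, and without MODD the members' medians were 0.047 and, for absolute values, 0.204. An absolute value above 0.5 was found for 16 members, or 17.8%, against 15.2% of all genes. At an unadjusted p under 0.05 there were 20 members, 11 higher and 9 lower, which is 22.2% beside 16.8% of all genes tested. Both libraries labelled modd mutant were above both DongJin libraries for 29 members (32.2%, beside 24.7% of all genes) and below for 19 (21.1%, beside 25.6%). The typical SE of a member was 0.171 on the log2 scale. For 76 of the 89 tested members other than MODD, the 95% interval ended below the estimate of MODD, 0.93. MODD ranked 3 by log2 fold change among the 90 tested members, so nearly all other estimates lay below its own in any case. That count of 76 takes no account of the interval of MODD itself, from 0.60 to 1.25. The like share over all genes was not worked out.

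Values by distance are given for both sides of MODD together and for each side, and a difference between the sides was not tested. Of the 15 tested members within 100 identifier numbers on either side, MODD left out, 6 (40.0%) had an unadjusted edgeR p under 0.05, 4 higher and 2 lower. Over all genes tested, that share was 16.8%. The median absolute log2 fold change of these 15 members was 0.323. On the higher-numbered side alone it was 0.393 over 6 members, and on the lower-numbered side 0.221 over 9, where it was 0.233 over the 23 members beyond 500. Beyond 100 and up to 300 it was 0.168 over 22 members, with 3 (13.6%) under an unadjusted 0.05. Beyond 300 and up to 500 it was 0.197 over 23, and beyond 500 it was 0.213 over 29, with 5 in each band (21.7 and 17.2%) under that level. In the main edgeR test none of the 74 members beyond 100 was called, 13 of them being under an unadjusted 0.05. How far calls reached moved with the fit. DESeq2 called 2 of these members, at distances of -110 and 350. With edgeR the farthest call was at -340 without a filter on low counts, at 350 without replicate 2 labelled modd mutant, at -110 without DongJin replicate 2 and at -910 without DongJin replicate 1. Low counts widen such values, so the bands are given as a description.

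Of all genes tested, 50.6% had a log2 fold change above 0, and of those of chromosome 3 outside the range 49.9%. At distances beyond 300 and up to 500 below MODD, 9 of 11 tested members had a log2 fold change above 0, and beyond 500 below it 8 of 23 did, with a median of -0.191. There, 11 of 23 members had both libraries labelled modd mutant below both DongJin libraries, which is 47.8% beside 25.6% of all genes, and 5 of 23 had both above, 21.7% beside 24.7%. This band was picked out after its values were seen. Above MODD, at distances beyond 300 and up to 500, 7 of 12 were above 0, with a median of 0.123.

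Among members further away, LOC_Os03g11440, at a distance of -110, came nearest to a call. It was at 97.31 and 89.17 FPKM in the modd-labelled libraries and 68.55 and 52.48 FPKM in DongJin, so the groups were apart, with DongJin replicate 2 lowest. Its log2 fold change was 0.58 ± 0.124 (SE, edgeR adjusted p = 0.0634), on counts with fractions, and 6 of the 12 alternative fits called it. LOC_Os03g12110, at 560, had 68 and 55 against 41 and 27 expected reads and a log2 change of 0.82 ± 0.255 (SE, edgeR adjusted p = 0.151). LOC_Os03g11690, at 140, had the highest value of the tested members, 1.12 ± 0.535 (SE), on 13 and 14 against 9 and 3 reads (edgeR adjusted p = 0.326). These 3 genes were singled out after their values were seen. LOC_Os03g11900, at 350, was at 60.83 and 36.57 against 27.88 and 29.29 FPKM, with replicate 1 labelled modd mutant far above the other libraries. Its log2 fold change was 0.72 ± 0.239 (SE, edgeR adjusted p = 0.232), and 1.03 without replicate 2 labelled modd mutant (edgeR adjusted p = 4.59e-05, with 0.796 the highest of the alternatives) and 0.32 without replicate 1. DESeq2 called it (DESeq2 adjusted p = 0.0449).

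The lowest log2 fold changes among members with a mean of at least 1 FPKM were those of LOC_Os03g10810, LOC_Os03g10850 and LOC_Os03g11300, at -0.90, -0.65 and -0.64. LOC_Os03g10850 was at 6.47 and 8.92 FPKM in the modd-labelled libraries and 10.2 and 10.25 FPKM in DongJin. All 3 had both libraries labelled modd mutant below both of DongJin, and none passed in the main test (edgeR adjusted p = 0.275, 0.202 and 0.258). The value of LOC_Os03g10850 was -0.39 without replicate 1 labelled modd mutant and -0.97 without replicate 2, and it passed at -0.77 without DongJin replicate 1 (edgeR adjusted p = 0.0362, with 0.738 without replicate 1 labelled modd mutant). That of LOC_Os03g10810 was -0.58 without replicate 1 labelled modd mutant and -1.32 without replicate 2. LOC_Os03g11734, at 184, had a log2 change of -0.42 ± 0.184 (SE, edgeR adjusted p = 0.282).

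The most abundant member was D14 (LOC_Os03g10620), the receptor of the branching hormone strigolactone, at a distance of -930. It had 3012 and 2990 expected reads in the modd-labelled libraries and 2559 and 2452 in DongJin. The groups were apart by a small step, a log2 change of 0.22 ± 0.109 (SE) with an interval from -0.02 to 0.47 (edgeR adjusted p = 0.335). OsNRAMP2 (LOC_Os03g11010), a metal transporter gene of the NRAMP family, was at 238 and 263 against 264 and 272 reads, a log2 change of -0.13 ± 0.124 (SE, edgeR adjusted p = 0.627). For both genes the upper bound, 0.47 and 0.14, lay below the lower bound of MODD.

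**Figure D3:**
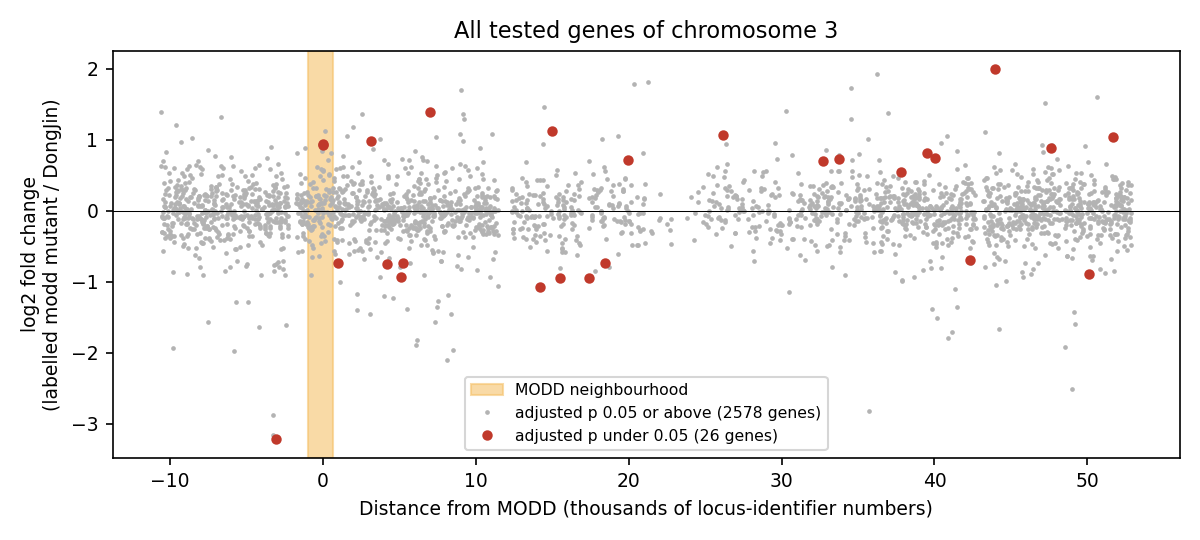
log2 change of the 2604 tested genes of chromosome 3 against distance from MODD in identifier numbers, with the 26 called genes in red and the neighbourhood shaded. Called genes lie along the whole chromosome, and the 2 in the neighbourhood overlap at a distance near 0.

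Along the whole of chromosome 3, 26 of 2604 tested genes were called, and 24 of these lay outside the range, 0.955% of the genes tested there. Below MODD the nearest called gene was LOC_Os03g08520, at a distance of -3030, which was lower in the modd-labelled libraries (log2 fold change -3.22, edgeR adjusted p = 0.0367). Above LOC_Os03g11560 it was LOC_Os03g12530, at 980, also lower there (-0.74, edgeR adjusted p = 0.0463). Called genes of the opposite direction thus flank the pair on both sides, at a distance, and these 2 were named after their values were seen. When the chromosome was split into stretches of 1600 identifier numbers, the stretch with MODD held 2 called genes. The other 27 stretches with at least 50 tested genes held from 0 to 3, with 2 or more in 3 of them and none in 13. The median absolute log2 fold change in these 27 ran from 0.128 to 0.25, a range that holds the value of the neighbourhood.

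Another value at MODD, its transcript-weighted length, was estimated from the same reads and separated the groups without overlap. For a gene with several transcripts, the length in the tables is an average weighted by the estimated share of each, so it moves when reads are assigned to other transcripts. MODD has 2 listed transcripts, and its length was 1666 and 1666 bases in the modd-labelled libraries and 1678 and 1678 bases in DongJin. Each group thus had a single value in both libraries, with a difference of -12 bases (labelled modd mutant minus DongJin). The files do not give the length of each transcript, and how many reads tell the transcripts apart is not known.

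Among the 29 members with several transcripts, the weighted lengths of the groups did not overlap in 8, beside 28.8% of the 5989 such genes of the series with at least 15 summed reads and listed in all 4 libraries. A single value in each group (within 0.01 bases) that differed between groups was rarer. It was found for 15 of the 5989, or 0.25%, and for 4 of the 5507 with at least 100 summed reads. MODD had the most reads of the 15, with 1125, and the next, LOC_Os08g09210, had 475. One other member showed it, LOC_Os03g10810 at a distance of -740, with 1288 bases in both libraries labelled modd mutant and 1292 in both DongJin libraries, on 68 reads in all. This way of sorting the genes was chosen after the lengths of MODD had been seen.

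LOC_Os03g11590 also had separate lengths, 1829 and 1869 bases in the modd-labelled libraries against 1900 and 1909 bases in DongJin, and so did LOC_Os03g11520, at 3171 and 3144 against 3283 and 3210 bases. In these genes the value varied between the libraries of a group, unlike in MODD. Another 5 members had the same length in all 4 libraries.

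**Figure D4:**
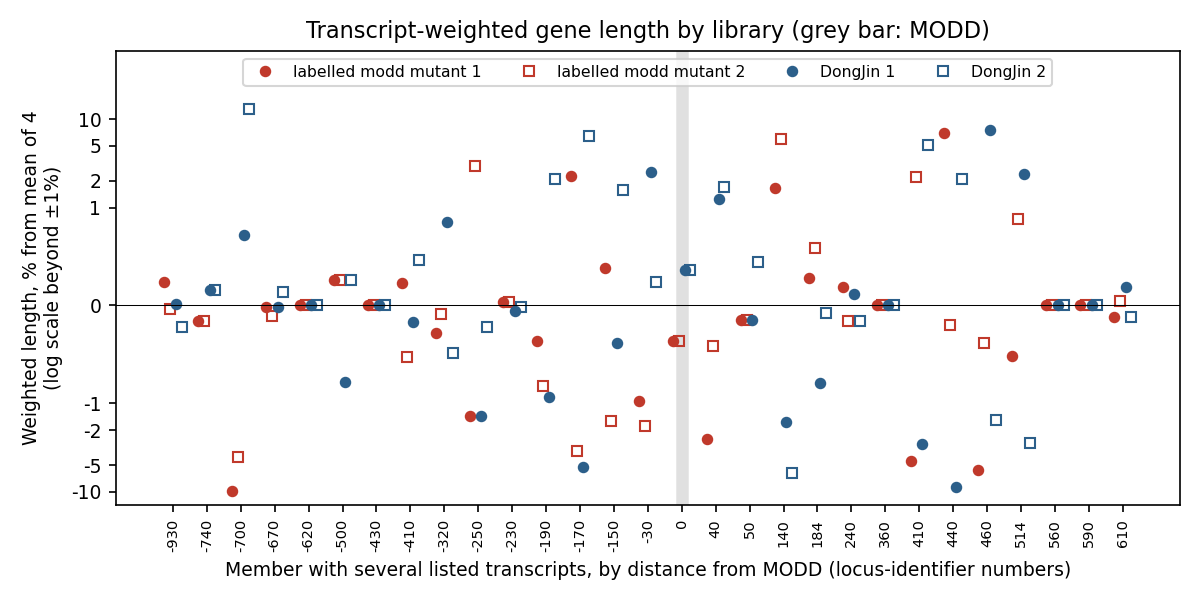
Transcript-weighted length of the 29 members with several listed transcripts, as the percent difference from the mean of the 4 libraries (log scale beyond 1% on either side), in order of distance from MODD, red for the modd-labelled libraries and blue for DongJin. At MODD (grey bar) the libraries of each group coincide, at 1666 and 1678 bases, while most other members scatter within groups.

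The 3 members just inside the count minimum were LOC_Os03g11020, OsMADS1 and LOC_Os03g11710, with 15 summed reads each, and the 2 identifiers just outside were LOC_Os03g10760 and LOC_Os03g11030, with 14 each. Of the 97 members, 7 did not reach the test's own filter, with 15 to 40 summed reads. The genes for the partners of MODD on other stretches of the genome, OsbZIP46, the corepressor OsTPR3 and the histone deacetylase HDA702, had log2 fold changes of -0.11, 0.01 and -0.05, each smaller than its SE.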

How the data were processed

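RNA-seq tables of 4 libraries were used, with groups from the genotype labels and replicate numbers from the titles. Per the submitters' processing notes, BWA, Bowtie and RSEM were used; the sources used here give no version, genome build or annotation. The authors deposited expected counts, estimated reads per gene in which a shared read may be divided. They, the authors, also deposited FPKM, which scales these by length and library size. The tables list only genes above 0, and a missing gene was set to 0.

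Expected counts were rounded to whole numbers for edgeR 4.0.16 (R 4.3.3; TMM, filterByExpr at its defaults with a minimum count of 10 and a total of 15, robust quasi-likelihood), over 19365 genes with Benjamini-Hochberg adjustment and a threshold of 0.05. SEs are the log2 fold change divided by the square root of F, and intervals use the test's degrees of freedom. The method was tested on simulated data. The common biological coefficient of variation was 10.3%. Libraries of a group differed beyond sampling noise (chi-square per degree of freedom 2.54 for modd mutant, 4.5 for DongJin). Neither group was thus the same library repeated, and all were kept. Alternatives used DESeq2 1.42.0 and limma 3.58.1 (log2 of FPKM plus 1 or 0.1). Named were MODD, 5 tested neighbours on each side, called members, the 3 highest and 3 lowest log2 fold changes at a mean of at least 1 FPKM, 7 loci with published names and 3 partners. The members, lists and rules were chosen with earlier results of these data known. No sequence is shown.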

Additional observations from a re-analysis of the deposited data

How the results depend on the processing

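Of the 12 alternative fits, 10 kept the calls of MODD and LOC_Os03g11560. With limma on log2(FPKM + 1) or log2(FPKM + 0.1), MODD was at 0.94 and 0.97 and did not pass (limma adjusted p = 0.0792 and 0.0868). In each, 0 members and 1 gene in all were called. In the same order, 16 and 17 members had a limma unadjusted p under 0.05, beside 3126 and 3091 of all 19365 genes. Without single libraries, MODD ran from 0.74 to 1.10 and was called each time; there the lone sample of a group is assumed to vary like the other group. Members called were 5 without the count filter, 4 with the replicate block, 4 with DESeq2 and from 2 to 13 without single libraries. All genes called were 102 with upper-quartile factors, 764 without the filter, 870 with the replicate block, 339 with DESeq2 and from 144 to 2483 without single libraries. Without single libraries, the median log2 fold change of members ran from 0.033 (without DongJin replicate 2) to 0.102 (without DongJin replicate 1) and the median absolute value from 0.184 to 0.248, without the same libraries; the cause was not tested. Signs turned, with no call, for LOC_Os03g11530 (from -0.08 to 0.16 without single libraries, lowest without replicate 2 labelled modd mutant), LOC_Os03g11580 (from -0.13 to 0.10 without single libraries, 0.04 without DongJin replicate 1, 0.03 in both limma fits) and DL (from -0.19 to 0.11 without single libraries, 0.10 without DongJin replicate 1, 0.01 in both limma fits). The shared replicate numbers mark no known pairing: same-numbered libraries deviated with a correlation of 0.0126. Under that replicate block, LOC_Os03g11440 and LOC_Os03g11570 were called as well, with 4.44% of members called beside 4.49% of all genes. Limiting members to 100 summed reads, or taking distance as rank, reused the main fit. MODD and LOC_Os03g11560 have 1125 and 782 summed reads, so neither step could change these 2 calls. RLE factors and non-robust estimation gave 170 and 180 calls and the same 2 members. Depth limits genes such as DL, with 36 reads in all.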
